A study of Mus musculus with 4 samples.

Results

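Spp1 and Mgp are 2 of the 32285 genes counted in cultured mouse muscle stem cells. Both were highest in the cells with the least myogenin, a differentiation gene. They were selected on measured values: earlier results of these data placed both among the leading genes of an undifferentiated cluster, so their high level there is a description and not a finding. The cells examined are those with little myogenin (Myog, the transcription factor that is switched on when a myoblast commits to differentiation). Of 5481 kept cells, 2572 (46.9%) had under 400 CPM of Myog and are called Myog-low, and the other 2909 are called Myog-high. CPM is the number of unique molecular identifiers (UMIs, 1 per captured RNA molecule) of a gene per 1000000 UMIs of the cells concerned.

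The study provides 1 group. Muscle stem cells from MyoD-KI mice, whose cells report the muscle transcription factor MyoD through the red fluorescent protein tdTomato, spent 5 days in a serum-rich growth medium. Cells with high MyoD-tdTomato signal were then sorted and profiled with the 10x Genomics 3-prime droplet chemistry, as 4 labelled replicates. The labels do not say how many mice or cultures were used, nor their age or sex. Because the sort kept reporter-high cells, cells with low reporter signal were not analysed here.

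Spp1 encodes osteopontin, a secreted acidic phosphoprotein that binds integrins and CD44 and is made by bone cells, macrophages and injured tissues, muscle among them. Mgp encodes matrix Gla protein, a small secreted protein of cartilage and vessel walls whose glutamate residues are carboxylated in a vitamin K-dependent reaction, and which restrains calcification of soft tissue and binds bone morphogenetic proteins (BMPs). Both act outside the cell and bind to the matrix.

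The stretches of coding sequence behind these activities are shown because they name what the transcripts encode. Spp1 (ENSMUSG00000029304) lies on the plus strand at chr5:104435118-104441050 of GRCm38, and Mgp (ENSMUSG00000030218) on the minus strand at chr6:136872435-136875823, both per GENCODE M21. The Spp1 stretch is in exon 7 of 8 of the transcript Spp1-202 (295 codons), at chr5:104439451-104439519, with capitals on codons 145 to 147, the arginine-glycine-aspartate (RGD) motif through which osteopontin binds integrins. It was found in 6 of 7 coding transcripts. The Mgp stretch is in exon 4 of 4 of Mgp-201 (104 codons), at chr6:136872713-136872787 on the minus strand, with capitals on codons 67 to 73, a motif of the Gla domain.
Spp1: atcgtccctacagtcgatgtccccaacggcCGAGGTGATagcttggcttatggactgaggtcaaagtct
Mgp: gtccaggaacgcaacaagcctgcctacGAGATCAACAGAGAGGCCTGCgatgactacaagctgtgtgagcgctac
The start of Spp1 is overlapped on the same strand by the predicted gene Gm42793, which has no row in the count files, so reads from it cannot be told apart from Spp1 reads. Mgp is overlapped by no annotated gene.

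The 4 files held 62627341 to 68898900 UMIs over 5950 to 5974 cell barcodes, and each pair shared 99.88% to 99.95% of the smaller file's barcodes, with 5944 barcodes in all 4. Per-cell Spp1 counts correlated between pairs of files with Pearson's r of 0.874 to 0.885 over the kept cells, and Mgp counts with 0.910 to 0.917. The files were therefore taken to hold the same cells sequenced repeatedly, that is n = 1, and no test between groups of cells was made. Each value below is the mean over the 4 files and ranges are over the files. Intervals of levels and ratios are 95% intervals that cover counting error only. Those of shares are 95% binomial intervals over the cells, which take cells as independent draws from this 1 sample. File ranges come from repeated sequencing of the same cells, so their non-overlap does not measure the spread between cells. The share of all genes whose file ranges also do not overlap is not given. Variation between animals, cultures and sorts was not measured.

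Spp1 in Myog-low cells stood at 671, 673, 659 and 665 CPM in replicates 1 to 4 (mean 667, Poisson interval 658 to 676), and in Myog-high cells at 112, 108, 109 and 109 CPM (mean 110). Mgp in Myog-low cells stood at 708, 720, 716 and 712 CPM (mean 714, interval 704 to 724), and in Myog-high cells at 125, 125, 121 and 124 CPM (mean 124). In every file both genes were higher in Myog-low cells, by a log2 ratio of 2.59 for Spp1 and 2.52 for Mgp on the scale of CPM plus 1. The median UMIs per cell and file were close, 10892 in Myog-low and 11145 in Myog-high cells. After thinning every cell to 5000 UMIs, a Spp1 UMI was found in 64.2% of Myog-low cells (Clopper-Pearson interval 62.2% to 66.1%) and 21.7% of Myog-high cells. For Mgp the shares were 64.2% and 24.0%. Without thinning they were 76.2% and 34.9% for Spp1, and 76.1% and 37.4% for Mgp.

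Both genes were lower in each higher bin of Myog. Spp1 stood at 756 CPM in the 1876 cells under 100 CPM of Myog, then at 417, 213 and 171 CPM in the bins from 100, from 400 and from 1000 CPM, and at 57.0 CPM in the 1816 cells with 2500 CPM or more. Mgp followed the same order with 791, 499, 271, 158 and 75.5 CPM. No neighbouring bins overlapped in their file ranges for either gene. Next to the boundary at 400 CPM, the summed levels were lower on its upper side. Spp1 stood at 238 CPM in the 108 cells just under the boundary (Myog from 300 CPM). In the 79 cells just above it (Myog under 500 CPM) Spp1 stood at 180 CPM. Mgp stood at 296 and 200.3 CPM. The file ranges did not overlap for either gene, but these are few cells, and the spread between them is not part of those ranges. In the bin with the most Myog, 13.8% of cells had a Spp1 UMI and 17.5% a Mgp UMI at 5000 UMIs. No population known to lack either gene was present, so the share of such UMIs that comes from free RNA in the droplets was not tested.

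**Figure D1:**
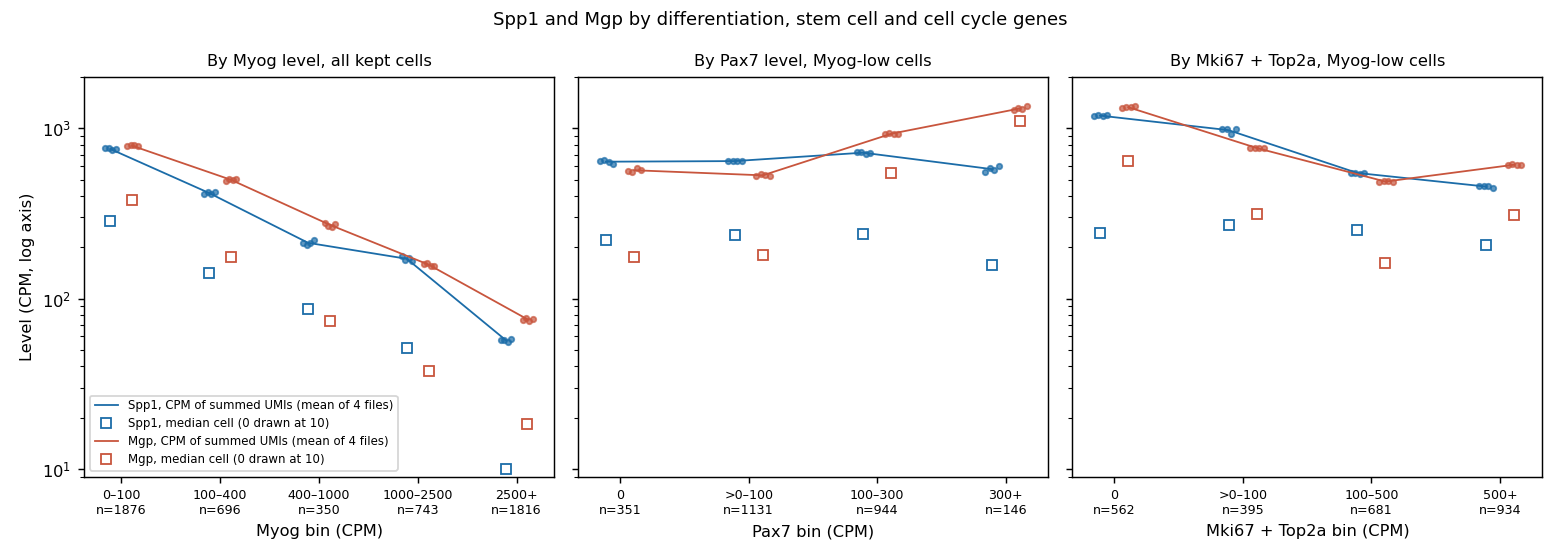
Spp1 (blue) and Mgp (red) by bins of Myog in all kept cells, and of Pax7 and of Mki67 plus Top2a in Myog-low cells, in CPM on a log axis. Dots are the 4 files, lines join their means and open squares are the median cell. Both genes fall from the lowest to the highest Myog bin, Mgp alone is highest in the top Pax7 bin (1309 CPM), and the medians of Spp1 stay between 208 and 269 CPM over the Mki67 plus Top2a bins while its mean goes from 1189 to 455 CPM.

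Within the Myog-low cells a minority carried most of both transcripts. Spp1 had a median of 234 CPM per cell, with the middle 50% of cells between 80.9 and 626 CPM, the 90th percentile at 1506 CPM and the highest cell at 30400 CPM. Its top 10% of cells held 56.9% of its UMIs. Mgp had a median of 315 CPM, the middle 50% between 58.7 and 1104 CPM, the 90th percentile at 2477 CPM and a maximum of 35179 CPM, and its top 10% of cells held 47.5% of its UMIs. For comparison, the top 10% of cells for Myod1, the gene of MyoD itself, held 31.0% of its UMIs. At 5000 UMIs per cell the Fano factor (variance over mean) was 19.7 for Spp1 and 14.9 for Mgp, ranks 3 and 4 of 6125 genes with a mean of at least 0.1 UMIs, behind the nuclear RNA Malat1 and the ribosomal-RNA-like Gm42418. No UMI in any file was found for Spp1 in 252 and for Mgp in 269 of the 2572 cells.

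Mgp was highest in the cells with the most Pax7, the transcription factor that marks muscle stem cells, and Spp1 showed no such order. Among Myog-low cells, Mgp stood at 568 CPM in the 351 cells with no Pax7 UMI, at 530 CPM in the bin above it, at 930 CPM from 100 CPM of Pax7 and at 1309 CPM in the 146 cells with 300 CPM or more. The share of cells with a Mgp UMI at 5000 UMIs was 53.0% without Pax7 and 84.8% in the highest bin. Spp1 stood at 637, 642, 720 and 576 CPM over the same bins, and its shares were 65.2%, 63.9%, 64.8% and 59.8%. Over the 2572 cells, which share libraries and differ in depth, the Spearman correlation with Pax7 was 0.279 for Mgp and 0.002 for Spp1. Between cells with and without a Pax7 UMI the log2 ratio was 0.37 for Mgp and 0.07 for Spp1. The Mgp value ran from 0.18 to 0.77 over the alternative settings, falling to 0.22 without replicate 3, and the Spp1 value changed sign under 5 of them, so no direction is given for it. Cells without a Pax7 UMI were shallower (median 8838 UMIs against 11277), which was not tested as a source of these values other than by thinning, where the Mgp ratio was 0.66. The bin with the most Pax7 was shallow too, with a median of 8032 UMIs against 12094 and 10470 in the 2 bins below it. For the bins, only the shares of cells with a UMI were taken at equal depth.

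Within the Myog-low cells, those with little Mki67 and Top2a, genes of dividing cells, held the highest levels of both genes. Cells under 100 CPM of their sum are called non-cycling and the others cycling, with no other evidence of division. In the 957 non-cycling Myog-low cells Spp1 stood at 1090 CPM (file range 1064 to 1099) and in the 1615 cycling cells at 490 CPM (483 to 494), a log2 ratio of cycling over non-cycling of -1.15. Mgp stood at 1069 CPM (1061 to 1074) and 565 CPM (560 to 572), a log2 ratio of -0.92. The file ranges did not overlap for either gene. Over all 5481 kept cells the order differed: from no UMI of Mki67 and Top2a to 500 CPM or more, Spp1 stood at 345, 352, 405 and 369 CPM and Mgp at 386, 300.3, 376 and 487 CPM.

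For Spp1 this difference lay in the upper tail of the cells. The median was 250 CPM in non-cycling and 225 CPM in cycling cells, and the same 64.2% of cells on both sides had a UMI at 5000 UMIs. The 90th percentiles were 2398 and 1153 CPM, and 16.0% of non-cycling against 6.56% of cycling cells exceeded 1500 CPM. All 16 cells above 10000 CPM of Spp1 were non-cycling, as were 25 of the 30 cells from 5000 to 10000 CPM. Without the highest 1% of Myog-low cells the ratio was -0.69 for Spp1 and -0.60 for Mgp, which in each case moves the value by over 1.5 times. For Mgp the median differed too, with 476 CPM in non-cycling and 235 CPM in cycling cells, and all 11 cells above 10000 CPM were non-cycling. Non-cycling cells were shallower, with a median of 8894 UMIs against 12366, and with every cell thinned to 5000 UMIs the ratios were -1.01 and -0.81.

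Crossing both axes gave 4 groups. The summed level of Spp1 was highest in the 781 non-cycling cells with a Pax7 UMI (1147 CPM). The 176 non-cycling cells without one followed (798 CPM). Spp1 stood at 488 and 502 CPM in cycling cells with and without a Pax7 UMI, where the file ranges overlapped. The summed levels of Mgp were 1131, 752, 579 and 414 CPM in the same order, and no file ranges overlapped. The typical cell did not show the middle step of Mgp. Its medians were 246 CPM in non-cycling cells without a Pax7 UMI and 249 CPM in cycling cells with one. The shares with a Mgp UMI after thinning ran the other way, 52.8% and 62.2%. For Spp1, the typical non-cycling cell did not follow the summed levels, with medians of 254 CPM with and 250 CPM without a Pax7 UMI. The shares of these non-cycling cells with a Spp1 UMI after thinning were 63.6% and 67.1%. Their 90th percentiles of Spp1 were 2802 and 2042 CPM, so the difference lay in the upper tail. The order of non-cycling above cycling cells was not found at 400 CPM of Myog and above, where cells were not split by Pax7. From 400 to under 1000 CPM of Myog, Spp1 stood at 215 CPM in non-cycling and 211 CPM in cycling cells, with overlapping file ranges, and Mgp at 242 and 291 CPM. From 1000 to under 2500 CPM, Spp1 stood at 154 and 191 CPM and Mgp at 139 and 181 CPM. In the bin with the most Myog the levels were 49.98 and 97.55 CPM for Spp1 and 64.8 and 137 CPM for Mgp. The order was thus the opposite of that in Myog-low cells for Mgp in all 3 bins and for Spp1 in the upper bins, without overlap of the file ranges.

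High Spp1 and high Mgp coincided in part, with more cells high or low for both genes than high for only 1. Split at the 2 medians, 693 Myog-low cells (26.9%) were high for both genes and 693 were low for both. Another 593 (23.1%) were high for Spp1 only and 593 for Mgp only. Genes unrelated to each other would put about 25% of the cells in each group. Per-cell levels on the scale of ln(1 + UMIs per 10000) correlated with a Pearson's r of 0.219 over the 2572 cells, as a description. The most extreme cells had both: the 16 cells above 10000 CPM of Spp1 had a median of 3887 CPM of Mgp and none was below 322 CPM. The 4 groups differed in depth, with median UMIs of 9902 (both high), 13199 (Spp1 high only), 8868 (Mgp high only) and 12108 (both low), and the part of depth in the split was not tested.

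**Figure D2:**
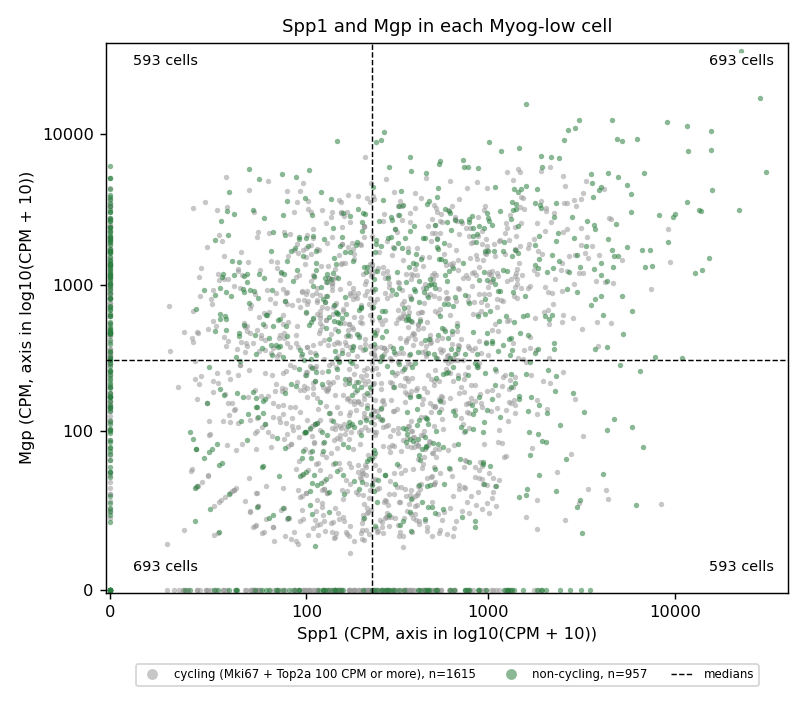
Each dot is a Myog-low cell, with Spp1 on the x axis and Mgp on the y axis in CPM, drawn on an axis of log10(CPM + 10). Green dots are non-cycling and grey dots cycling cells, and dashed lines are the medians. The 4 fields hold 693, 593, 593 and 693 cells, and the cells above 10000 CPM of either gene are green.

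The highest and the lowest 25% of Myog-low cells by Spp1, 643 cells each, were compared across genes. They stood at 2035 and 30.9 CPM of Spp1, and the boundaries fell between 80.7 and 80.9 CPM and between 626.0 and 626.3 CPM. The cells high for Spp1 had less of most myocyte markers (8 of 12 tested), while no tested gene of the stem cell and cell cycle lists passed 2-fold. Both genes were chosen from these data as leading genes of an undifferentiated cluster. Lower myocyte markers with either gene are therefore a description and no independent finding. Mgp itself stood at 1226 CPM in the highest and 568 CPM in the lowest quartile, a log2 ratio of 1.11 (1.10 to 1.13 over the files). It did not increase over the lower 3 quartiles, at 568, 484 and 572 CPM, so the difference lay in the highest quartile. Restricted to cells of 8000 to 16000 UMIs the ratio was 1.39. Median UMIs were 11028 in the highest and 9736 in the lowest quartile, and 54.6% and 56.5% of the cells were cycling.

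Of 10413 genes with 50 UMIs or more in every file, 124 (1.19%) were at least 2-fold higher in the highest quartile and 143 (1.37%) at least 2-fold lower, with the same sign in every file. The counts were 65 and 75 with cells thinned to 5000 UMIs, and 25 and 41 with a pseudocount of 10 CPM. In cells without a Myog UMI they were 46 and 85. Thinned cells left 8911 genes past the count filter and cells without a Myog UMI 4029, Spp1 included. The counts are thus not shares of 1 total. Among the 10413 genes the median log2 ratio was -0.05. Tm4sf1, a small membrane protein of the tetraspanin type, led with 173 against 40.0 CPM (log2 ratio 2.09, 1.96 to 2.21 over the files) and rose over the 4 quartiles from 40.0 through 63.4 and 103 to 173 CPM. Fxyd5, a regulator of the sodium pump, stood at 45.6 against 10.1 CPM (2.07). Ecm1, a secreted matrix protein, stood at 57.9 against 15.5 CPM (1.83), and Prkg2, a cyclic GMP-dependent protein kinase, at 42.4 against 10.4 CPM (1.93). The other 8 of the 12 highest were Car8, Sema7a, Fabp4, Csmd1, Dock8, Thsd4, Kcnn4 and Klhdc8a, with log2 ratios from 1.84 to 2.02 and 6.61 to 22.8 CPM in the highest quartile. With a pseudocount of 10 CPM, 5 of these 12 passed 2-fold, and in cells without a Myog UMI 10 did, Kcnn4 (0.67) and Csmd1 (0.99) being under it.

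The lowest ratios went to Mycl, a member of the Myc family, with 2.46 against 14.2 CPM (log2 ratio -2.14), and to Igf1, the gene of insulin-like growth factor 1, with 4.95 against 25.1 CPM (-2.14). Igf1 dropped already between the lowest quartile and the second, from 25.1 to 8.13 CPM, and then stood at 6.57 and 4.95 CPM. Genes of the sarcomere followed. Ttn, which encodes titin, stood at 985, 562, 462 and 287 CPM from the lowest to the highest quartile (-1.78), and Tnnt1, the slow skeletal troponin T, at 669 CPM in the lowest and 181 CPM in the highest (-1.88). Fhod3, Pdlim3, Sln, Nrap and Lmod3, all genes of muscle fibres, had log2 ratios of -1.94 to -1.73. Plac1 (-1.75), Gm12153 (-1.74) and C430049B03Rik (-1.72) complete the 12, of which 8 passed 2-fold with a pseudocount of 10 CPM.

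**Figure D3:**
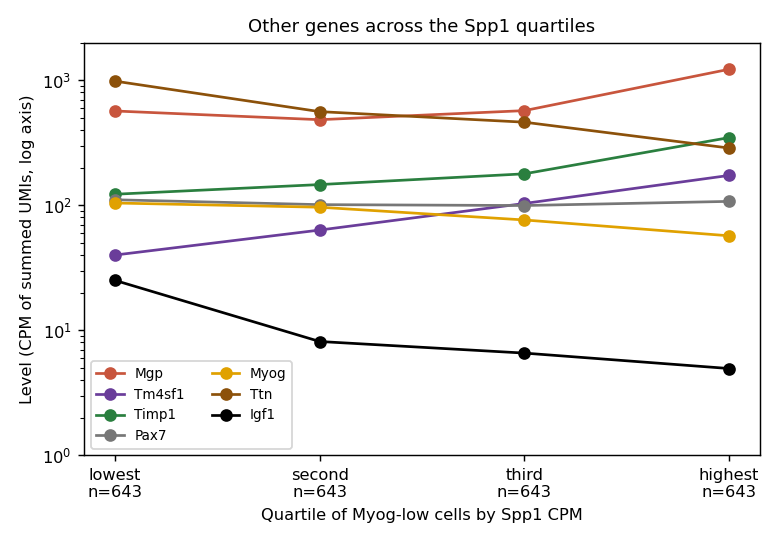
Levels of 7 genes (CPM, log axis) in the 4 quartiles of Myog-low cells ordered by Spp1, each point the mean of the 4 files over 643 cells. Tm4sf1 and Timp1 rise and Ttn, Igf1 and Myog fall over the quartiles, Pax7 stays between 99.6 and 111 CPM, and Mgp is higher in the highest quartile alone.

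Among markers of differentiating myocytes, 8 of the 12 tested were at least 2-fold lower in the cells high for Spp1 and 0 were higher (list median -1.21). Of all genes tested, 1.37% were lower and 1.19% higher. Myog itself stood at 57.0 against 104 CPM although all cells were under 400 CPM. In the 361 cells without any Myog UMI, with 91 cells in each quartile, Ttn stood at a log2 ratio of -1.62 and Tnnt1 at -2.01, Acta1 (skeletal actin) at -0.12 against -1.27 in all Myog-low cells, and Myl1 (a myosin light chain) at 0.35 against -1.26. Markers of stem cells and progenitors showed 0 of 7 tested past 2-fold in either direction, with Pax7 at 107 against 111 CPM and Myf5 at 90.7 against 98.8 CPM. Of 16 cell cycle genes 0 passed 2-fold, with a median of -0.07.

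Of the osteopontin receptors, 7 of 10 were tested. The integrin subunit Itgb6 was 2-fold lower in the cells high for Spp1 (25.6 against 52.9 CPM, log2 ratio -1.02). Another subunit, Itgb5, stood at 26.2 against 12.9 CPM (0.98) and Itgb1 at 315 against 316 CPM, neither past 2-fold. Fam20c, the kinase that phosphorylates osteopontin, was higher (25.2 against 10.9 CPM, 1.14). The related acidic phosphoprotein Dmp1, the only family member tested of 4, was higher as well (10.4 against 3.36 CPM, 1.40), while Mepe and Dspp had no UMI in either quartile.

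Of 24 matrix genes tested, 3 were higher and 1 lower (list median 0.26), against 1.19% and 1.37% of all genes tested. Of the 24, 70.8% had a ratio above 0, against 42.3% of all genes tested. Timp1, an inhibitor of matrix metalloproteinases, stood at 348 against 123 CPM (1.50), the collagen chain Col6a3 at 14.8 against 4.74 CPM (1.47) and the laminin chain Lamb1 at 56.8 against 26.3 CPM (1.09), while Tnc, which encodes tenascin C, stood at 31.4 against 66.4 CPM (-1.06). Of 6 mineralisation genes tested, the pyrophosphate transporter Ank was higher (94.1 against 41.5 CPM, 1.16), and Runx2 and Sp7, transcription factors of bone-forming cells, stood at log2 ratios of -0.06 and -0.02. Of 9 immediate early genes, Fosl1, a Fos-family transcription factor, was higher (40.5 against 14.5 CPM, 1.43). Of 8 Notch genes, the ligand Dll1 was lower (4.72 against 11.2 CPM, -1.10), but stood at 0.38 in cells without a Myog UMI. Of 15 BMP genes and 8 genes of vitamin K and Gla proteins, 0 passed 2-fold.

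The companion comparison took the highest and lowest 25% by Mgp, again 643 cells each (2607 and 18.6 CPM of Mgp). It shares its cells with the Spp1 comparison, so values are set side by side and no overlap between the 2 is tested. Spp1 stood at 1438 CPM in the cells high for Mgp and at 410 CPM in the low ones, a log2 ratio of 1.81. Of 10379 genes tested, 364 (3.51%) were at least 2-fold higher in the cells high for Mgp and 121 (1.17%) lower, with a median of 0.02. The cells high for Mgp were shallower (median 8643 against 13222 UMIs) and fewer of them were cycling (50.4% against 72.5%). Among cells of 8000 to 16000 UMIs the counts were 301 and 79, among non-cycling cells 218 and 140, and with thinned cells 236 and 79. With a pseudocount of 10 CPM they were 157 and 36, and in cells without a Myog UMI 93 and 48. The genes past the count filter, Mgp included, numbered 9242, 7482, 8580, 10380 and 4091 in that order. These counts are thus not shares of 1 total.

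Gucy1a1, a subunit of the nitric oxide receptor guanylate cyclase, led with 40.4 against 0.966 CPM (log2 ratio 4.41). Cyp1a1 stood at 15.1 against 0.112 CPM (3.87, interval 3.24 to 4.02) and Aldh3a1 at 27.5 against 1.55 CPM (3.48). Both encode enzymes that are induced through the aryl hydrocarbon receptor. Heyl, an effector of Notch signalling, stood at 64.0 against 4.73 CPM (3.51), and Pdgfrb, a receptor for platelet-derived growth factor, at 27.0 against 1.78 CPM (3.34). Olfml2a, Csmd1 and Thsd4 complete the 8 highest, at 3.44 to 3.66. The 8 lowest were Igsf11, Hspb7, Ccdc88c, Fndc5, Mgat4e, Xirp1, Pdlim3 and 1700012B09Rik, with log2 ratios from -2.33 to -2.09. Hspb7, Xirp1 and Pdlim3 belong to the muscle cytoskeleton and its chaperones. Of these 8 lowest, 4 passed 2-fold with a pseudocount of 10 CPM and 7 in cells without a Myog UMI.

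In the Spp1 comparison 3 of 24 matrix genes were higher, against 1.19% of all genes tested. In the Mgp comparison 13 of 24 were higher and 0 lower (list median 1.08), against 3.51% and 1.17% of all genes tested. The collagen VI chains were among them, with Col6a3 at 21.5 against 2.40 CPM (2.73), Col6a2 at 34.6 against 4.62 CPM (2.66) and Col6a1 at 67.0 against 11.2 CPM (2.49). Tnc, lower in cells high for Spp1, stood at 72.1 against 11.4 CPM here (2.56). The basement membrane collagens Col4a1 and Col4a2 had log2 ratios of 1.83 and 1.80.

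Of the Notch genes, 6 of 8 tested were higher and 1 lower in cells high for Mgp (median 1.16). For this and the lists that follow, 3.51% of all genes tested were higher and 1.17% lower. The receptor Notch3, which is also a marker of pericytes, stood at 158 against 48.0 CPM (1.70), the targets Hey1 and Hes1 at log2 ratios of 1.60 and 1.07, and the ligand Dll1 at 2.92 against 12.3 CPM (-1.77). Of 7 stem cell and progenitor markers 3 were higher (median 0.82): Spry1, an inhibitor of growth factor signalling, at 1.59, Cdh15 (M-cadherin) at 1.30, and Pax7 at 149 against 72.7 CPM (1.02). Of 12 myocyte markers 2 were lower, Myh3 at -1.43 and Acta1 at -1.10 (median -0.69). In cells without a Myog UMI, Myh3 stood at 0.07. Of 8 genes that an earlier look at these data gave to a progenitor cluster, 4 were higher (median 0.98), a list chosen on these cells and so no independent evidence. Of 9 immediate early genes, which respond to stimulation and to handling of cells, 3 were higher (median 0.11): Egr1 at 70.6 against 14.2 CPM (2.23), Ier2 at 41.0 against 17.9 CPM (1.15) and Fos at 12.5 against 5.32 CPM (1.11). Jun, of the same list, stood at 175 against 185 CPM (-0.08). The part of handling in these values was not tested.

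Of 16 BMP genes tested, 3 were higher and 1 lower in cells high for Mgp, against 3.51% and 1.17% of all genes tested. Bmper, a secreted BMP-binding protein, stood at 28.1 against 3.54 CPM (2.68), the ligand Bmp6 at 11.5 against 1.54 CPM (2.29) and the antagonist Nog at 14.6 against 4.82 CPM (1.45), while Smad9 stood at -1.01. Id1 and Id3, targets of BMP signalling, had log2 ratios of -0.40 and 0.21. Of 8 vitamin K and Gla genes tested, Vkorc1, which recycles the vitamin K that Gla proteins need, was higher (88.0 against 41.9 CPM, 1.06) and the Gla protein Prrg4 lower (-1.78), while the carboxylase Ggcx stood at 8.63 against 5.96 CPM (0.45). Sp7, a factor of bone-forming cells, was lower (18.2 against 46.8 CPM, -1.32), as was the tendon factor Scx (23.3 against 87.5 CPM, -1.86). Of 16 cell cycle genes 0 passed 2-fold.

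**Figure D4:**
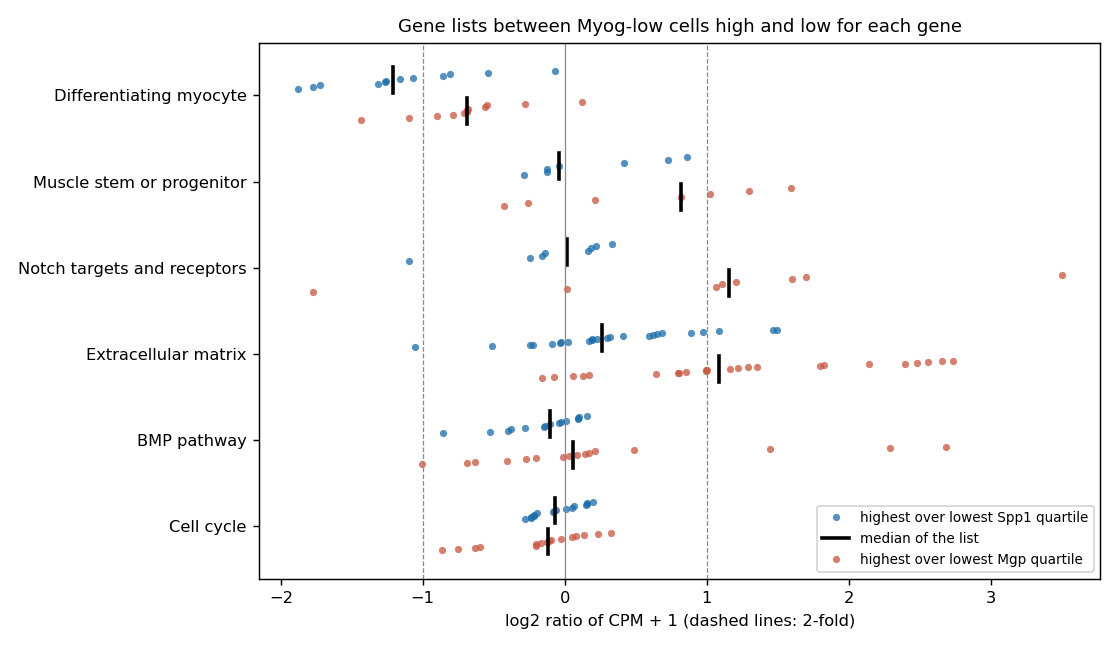
Log2 ratios of CPM plus 1 between the highest and lowest quartile of Myog-low cells by Spp1 (blue) and by Mgp (red), 1 dot per tested gene of 6 lists, with the list median as a black bar and dashed lines at 2-fold. Myocyte genes lie lower for both (medians -1.21 and -0.69), while Notch and matrix genes lie higher for Mgp (1.16 and 1.08) than for Spp1 (0.01 and 0.26).

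The 593 cells high for Spp1 only were set against the 593 cells high for Mgp only. On the Spp1 side 58 of 10286 genes were at least 2-fold higher (0.564%) and on the Mgp side 207 (2.01%). Among the leading genes on the Spp1 side were Wincr1 (7.37 against 0.524 CPM, 2.45), 1700012B09Rik (2.43), the small heat shock gene Hspb7 (1.98) and Fabp4, a fatty acid carrier (1.92). On the Mgp side led Gucy1a1 (24.8 against 1.11 CPM, -3.62), Capn6 (118 against 12.2 CPM, -3.19), Rtl3 (-2.72), Islr (216 against 36.2 CPM, -2.55) and Nctc1 (-2.45). Tnc (-2.36), Heyl (-2.36) and Gucy1b1, the partner subunit of Gucy1a1 (-2.30), were also among the 10 that led there.

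By per-cell correlation over the 2572 Myog-low cells and 10742 genes, given as a description since cells share libraries and depth, the gene most like Spp1 was Timp1 (Pearson's r 0.441). Anxa1, Ifitm3, Arpc1b, Ecm1, Tm4sf1, Pold4, S100a6, S100a13 and Phlda3 followed, with r from 0.422 to 0.354. Mgp ranked 66th for Spp1. The gene most like Mgp was S100a11 (0.616), then Islr (0.593), Crip1 (0.538), Anxa5 (0.531) and Sparc (0.492), and after them Pold4, Itm2a, Heyl, Morrbid and Capn6, from 0.487 to 0.425. Spp1 ranked 221st for Mgp. Mgp fell with depth (Spearman -0.351 with total UMIs) and Spp1 did not (0.127), and the part of depth in these ranks was not tested.

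The 250 bases before the RefSeq start (GRCm38.p6) are shown for Spp1 and for the 2 genes that led its company, Timp1 by correlation and Tm4sf1 by ratio. Capitals mark 4 motifs searched on both strands: the E-box CANNTG bound by MyoD and myogenin, the RUNX motif TGTGGT, the AP-1 motif TGANTCA and TATAAA. The windows are chr5:104434861-104435110 (plus strand), chrX:20869916-20870165 (plus) and chr3:57301989-57302238 (minus).
Spp1: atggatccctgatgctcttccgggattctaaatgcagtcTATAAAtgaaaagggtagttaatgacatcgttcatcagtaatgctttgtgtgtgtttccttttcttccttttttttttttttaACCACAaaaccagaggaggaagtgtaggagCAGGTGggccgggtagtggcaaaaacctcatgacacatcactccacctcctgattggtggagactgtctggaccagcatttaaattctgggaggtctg
Timp1: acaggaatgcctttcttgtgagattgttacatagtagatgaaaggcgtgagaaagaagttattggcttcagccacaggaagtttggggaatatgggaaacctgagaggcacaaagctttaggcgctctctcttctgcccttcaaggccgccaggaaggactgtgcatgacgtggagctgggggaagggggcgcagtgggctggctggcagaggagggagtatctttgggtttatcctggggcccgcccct
Tm4sf1: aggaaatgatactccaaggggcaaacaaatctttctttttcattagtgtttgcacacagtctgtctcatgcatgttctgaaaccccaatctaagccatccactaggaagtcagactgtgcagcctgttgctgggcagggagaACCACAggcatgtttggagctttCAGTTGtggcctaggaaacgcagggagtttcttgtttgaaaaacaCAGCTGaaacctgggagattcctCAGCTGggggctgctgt
The Spp1 window held 1 E-box, 1 RUNX match (as its reverse complement) and 1 TATAAA, the Tm4sf1 window 3 E-boxes and 1 RUNX match, and the Timp1 window none of the 4. Of 32851 windows of this length, 66.2% held an E-box, 14.0% the RUNX motif, 6.75% the AP-1 motif and 12.4% TATAAA. A match is a description of letters and no evidence of binding.

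The Myog-low cells were checked against marker lists of the cell types that could have been carried along. All 8 macrophage markers together stood at 1.20 CPM (0.952 to 1.61 over the files), and Ptprc, Adgre1, C1qa, C1qb and Tyrobp had no UMI in these cells. The 5 endothelial markers together stood at 2.24 CPM, with Cdh5 at 0. The 7 markers of pericytes or smooth muscle together stood at 124 CPM (122 to 127), of which Notch3 and Cspg4 alone passed 10 CPM, and Myh11 stood at 0.198 CPM. In the Mgp comparison that list stood at 210 CPM in the highest quartile (200.1 to 219) and 76.9 CPM in the lowest (75.2 to 80.7). Of its 4 tested genes 2 were higher, Pdgfrb (log2 ratio 3.34) and Notch3 (1.70), against 3.51% of all genes tested. Cspg4 stood at -0.45, and Kcnj8 was not tested, with no UMI in either quartile. In the Spp1 comparison the pericyte list stood at 144 and 137 CPM, with Pdgfrb alone higher (1.67). The tenocyte list stood at 29.5 CPM in cells high for Mgp and 91.2 CPM in the low ones. Of the fibroblast markers, Pdgfra (0.840 CPM), Dcn (0.374) and Lum (0.0080) were close to 0, while Col3a1 and Ly6a passed 10 CPM and made up most of the list's 214 CPM. Ly6a was higher in the cells high for Spp1 (73.0 against 31.9 CPM, 1.17), and whether cells of other origin contributed to these values was not tested. Myocyte markers together stood at 1756 CPM in Myog-low against 28830 CPM in Myog-high cells, and stem cell and progenitor markers at 438 against 229 CPM, so the Myog-low cells held little, but not 0, of the differentiation genes.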

How the data were processed

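Droplet single-cell RNA sequencing of 4 labelled replicates of 1 group was analysed. The deposited values are raw counts of UMIs per gene and barcode, written by Cell Ranger 7.1.0 per the file headers, while the submitters' processing notes name Cell Ranger 3.1.0 and the builds mm10 and GRCm39, without roles. The rule for calling barcodes, the annotation and the use of intronic reads are not given in the sources used here. Coordinates are those of GENCODE M21 on GRCm38, where 32158 of 32285 gene identifiers were found. RefSeq promoter windows were matched by symbol.

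Barcodes in all 4 files were kept where the mean over the files was 1000 genes or more and a mitochondrial share under 10% (5481 of 5944). Myog, Pax7 and cycling bins and the quartiles were set on UMIs summed over the files, and every level was computed per file and averaged. Log2 ratios are of CPM plus 1, a scale that understates changes of low genes. A gene was called at 2-fold with the same sign in every file, among genes with 50 UMIs or more in every file over both quartiles. With n = 1 no test was made. Intervals are exact 95% Poisson, Clopper-Pearson or conditional binomial intervals at the mean count of 1 file. For shares, cells were thinned to 5000 UMIs per file, leaving 5197 cells, of which 2398 were Myog-low. No doublet caller was run, and an alternative leaves out the 5% of cells with the most UMIs.

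The genes, bins and lists were chosen with earlier results of these data known. Named are the 12 highest and 12 lowest genes of the Spp1 quartiles, the 8 and 8 of the Mgp quartiles, the 10 most correlated with each gene, up to 4 called members of a list and up to 2 others that bear on its role. Genes named from the split at the 2 medians were chosen after its values were seen. Of the genes leading that split, 1 is not reported here. The calculation of ratios was run on simulated Poisson counts with known folds. These held no spread between cells and no choice of quartiles by a gene, so the run cannot bear on either. Alternatives covered files, cell filters, depth, scaling, thresholds, quartiles and pseudocount. Python 3.11.15, numpy 2.4.6, scipy 1.17.1 and pandas 2.3.3 were used.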

Additional observations from a re-analysis of the deposited data

Results flagged for a closer look

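Of 94 reported values compared over the 4 files, 2 had 1 file far from the other 3 by Dixon's 95% limit on the gap to the nearest file over the whole range, and chance flags about 5% of such comparisons. Mgp in the Myog-low cells with 100 to under 300 CPM of Pax7 stood at 938 CPM in replicate 2. The log2 ratio of Olfml2a between the Mgp quartiles was 3.50 in replicate 2. Both genes were also present in data that no comparison uses: in the 463 barcodes found in all files but not kept, Spp1 stood at 252 CPM and Mgp at 142 CPM of non-mitochondrial UMIs, against 379 and 409 CPM in the kept cells and a limit of 5.56 CPM that a count of 0 allows.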

How the results depend on the processing

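No paired analysis was possible because the study has 1 group and the 4 files hold the same cells. Values in pairs are Spp1, then Mgp, and the cause of each shift was not tested unless the setting itself removes cells or genes. Leaving out 1 file gave log2 ratios of Myog-low over Myog-high of 2.58 to 2.60 and 2.50 to 2.53, of cycling over non-cycling of -1.16 to -1.08 and -0.93 to -0.86, and with over without Pax7 of -0.023 to 0.20 and 0.22 to 0.52. The negative Spp1 value came without replicate 3. It gave shares at 5000 UMIs of 41.1% to 41.5% and 42.4% to 42.6%, a Mgp ratio between the Spp1 quartiles of 1.10 to 1.11, 113 to 123 genes higher and 124 to 145 lower with Spp1, and 347 to 362 higher and 112 to 120 lower with Mgp.

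The share of all kept cells with a UMI was 41.3% and 42.5%, without thinning 54.3% and 55.6%, at 2500 UMIs 30.6% and 33.5%, and 42.9% for Spp1 with the stricter cell filter (2000 genes, under 5% mitochondrial UMIs). The Myog ratio was 2.48 and 2.37 with the stricter filter, 2.95 and 2.83 with thinned cells, 2.92 and 2.86 as a mean over cells, 2.33 and 2.26 with TMM or median-ratio factors, 2.50 and 2.40 with Myog under 200 CPM, 2.57 (Mgp) with Myog under 800 CPM, 2.85 and 2.71 without the deepest 5% of cells, and 2.50 and 2.44 with a pseudocount of 10. The cycling ratio was -1.19 and -0.87 with the stricter filter, -1.01 and -0.81 thinned, -1.10 (Spp1) as a mean over cells, -1.08 and -0.85 with TMM factors, -1.07 and -0.83 with Myog under 800 CPM, -0.84 (Mgp) without the deepest cells, -1.38 and -1.12 with 500 CPM against 0, and -0.69 and -0.60 without the highest 1% of cells.

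For Pax7, the Spp1 ratio of 0.07 reversed to -0.019 with the stricter filter, -0.050 with TMM, -0.12 with median-ratio factors and -0.069 with Myog under 200 CPM, and was 0.24 with Myog under 800 CPM and 0.14 with Pax7 from 100 CPM against 0. The Mgp ratio of 0.37 was 0.64 with the stricter filter, 0.66 thinned, 0.24 with TMM, 0.18 with median-ratio factors, 0.54 with Myog under 800 CPM, 0.58 without cells under 1000 CPM of Malat1, 0.49 without the deepest cells and 0.77 with Pax7 from 100 CPM. The Mgp ratio between the Spp1 quartiles was 1.26 with the stricter filter, 1.18 with Myog under 800 CPM, 1.02 with quartiles chosen in replicate 1 and measured in the others, 1.27 with the outer 10%, 1.33 in non-cycling cells and 1.39 at 8000 to 16000 UMIs.

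Genes at least 2-fold higher and lower with Spp1 numbered 65 and 75 with thinned cells, 25 and 41 with a pseudocount of 10 and 46 and 85 in cells without a Myog UMI, where 4029 genes could be tested, and 95 were lower with Myog under 200 CPM. With Mgp they numbered 236 and 79, 157 and 36, and 93 and 48 under the same 3 settings. For Mgp, 218 were higher in non-cycling cells, 182 lower with no filter on low counts, and 79 lower at 8000 to 16000 UMIs. The number of genes tested for Mgp differed between settings, from 4091 without a Myog UMI to 20861 with no filter on low counts. Among named and listed genes, Dll1 (0.38) and Myl1 (0.35) in the Spp1 quartiles and Myh3 (0.074) in the Mgp quartiles reversed, all in cells without a Myog UMI. The settings without a Myog UMI, of 8000 to 16000 UMIs and without the highest 1% of cells were chosen after seeing the data. Over all settings, 64 of 127 alternative levels, ratios and shares lay within the 95% interval of the reported value. Of 78 alternative gene counts, 62 lay within 1.5 times the reported count. In other named genes, 2-fold was lost by 1 of the 12 highest for Spp1 as a mean over cells and by 1 of the 12 lowest with the stricter filter. The outer 10% were not compared for Mgp, and the split at the 2 medians, the correlations and the members of the lists that were not called were computed under 1 setting.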
